A study of Homo sapiens with 6 samples.

Results

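The 10 genes described here encode enzymes of glycolysis and lactate formation: GPI, PFKL, ALDOA, TPI1, GAPDH, PGK1, PGAM1, ENO1, LDHA and LDHB. They were chosen by name, as the loci of the deposited comparison table whose gene column holds one of these symbols, and each symbol matched 1 locus. They are 10 of the 23653 genes with a value in the 6 libraries. HEK293, a human embryonic kidney cell line, was grown at 37°C. Heat shock was 30 minutes at 45°C in a water bath, given to cells in a 15 ml tube, and control cells were left unheated. Each group had 3 libraries of total RNA depleted of ribosomal RNA. The labels give the minutes in the water bath but no time of collection, and they do not say that replicates were separate cultures, so p-values measure only the spread between these libraries. The study compared the groups to find transcripts that change soon after heat shock. The same genes were also examined as candidate reference genes, that is, genes used to set the level of others.

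Glycolysis splits glucose into pyruvate in the cytosol and yields ATP and NADH. GPI and PFKL (liver-type phosphofructokinase) act on the hexose phosphates, ALDOA (aldolase A) and TPI1 (triosephosphate isomerase) make glyceraldehyde 3-phosphate, and GAPDH, PGK1, PGAM1 and ENO1 carry it to phosphoenolpyruvate. LDHA and LDHB encode the M and H subunits of lactate dehydrogenase, which converts pyruvate and lactate into each other. Their mRNAs are abundant in cultured cells, and GAPDH and PGK1 are in wide use as reference genes. Heat shock activates HSF1, which binds repeats of the letters NGAAN in front of chaperone genes, whereas several glycolytic genes are known targets of the hypoxia factor HIF-1, whose site has the core ACGTG or GCGTG.

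All positions of exons and loci are on hg19, the build of the deposited files. The leading annotated transcript of GAPDH had 9 exons at chr12:6643585-6647537 on the plus strand, and TPI1 had 7 exons at chr12:6976693-6980110. LDHB had 8 exons at chr12:21788275-21810789 on the minus strand, and ENO1 had 12 exons at chr1:8921059-8939151, also on the minus strand. On the plus strand, ALDOA had 9 exons at chr16:30076994-30081741, PGK1 11 exons at chrX:77359666-77382324 and PGAM1 4 exons at chr10:99186027-99193198. GPI had 18 exons at chr19:34856032-34893318, PFKL 22 exons at chr21:45719930-45747256 and LDHA 7 exons at chr11:18415936-18429765, all on the plus strand. GENCODE lists all 10 as protein-coding.

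The stretch of 250 bases before the transcription start was searched in 35116 promoters of RefSeq (GRCh38.p14), on both strands, for the letters GAANNTTC and TTCNNGAA of the HSF1 site and for ACGTG and GCGTG of the HIF-1 site. Either HSF1 string was present in 11.6% of all promoters, in 1 of the 10 enzymes (PGK1) and in 9 of 12 heat shock genes. A gene was counted if any of its listed starts matched, so genes with several starts had more than 1 window. By single promoter, the HSF1 strings were in 1 of 14 of the enzymes and 9 of 16 of the heat shock genes. ACGTG was present in 18.5% of all promoters and in 6 of the 10 enzymes, namely ALDOA, GAPDH, GPI, LDHA, PGK1 and TPI1. GCGTG was present in 32.2% of all promoters and in 5 of the 10 enzymes. Either HIF-1 string was present in 43.2% of all promoters, in 8 of the 10 enzymes and in 5 of 12 heat shock genes. By single promoter, either HIF-1 string was in 11 of 14 of the enzymes and 9 of 16 of the heat shock genes. The promoters shown are PGK1, the only enzyme with an HSF1 string, LDHA, which held ACGTG in 3 places, and DNAJB1, the heat shock gene with the largest difference between the groups, chosen after its values were seen. Capitals mark any of the 4 strings on either strand, and the GAANNTTC of PGK1 began 232 bases before the start, while those of DNAJB1 began 77 and 47 bases before it. RefSeq lists several starts for LDHA and DNAJB1, and the window with the most matches is shown. A match of letters is a description and not evidence of binding.
PGK1, chrX:78103998-78104247, plus strand: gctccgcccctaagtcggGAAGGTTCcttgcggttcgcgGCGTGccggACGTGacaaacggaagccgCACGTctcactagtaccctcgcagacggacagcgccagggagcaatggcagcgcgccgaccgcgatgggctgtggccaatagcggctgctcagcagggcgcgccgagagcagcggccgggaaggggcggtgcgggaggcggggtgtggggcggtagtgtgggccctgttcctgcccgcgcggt
LDHA, chr11:18394313-18394562, plus strand: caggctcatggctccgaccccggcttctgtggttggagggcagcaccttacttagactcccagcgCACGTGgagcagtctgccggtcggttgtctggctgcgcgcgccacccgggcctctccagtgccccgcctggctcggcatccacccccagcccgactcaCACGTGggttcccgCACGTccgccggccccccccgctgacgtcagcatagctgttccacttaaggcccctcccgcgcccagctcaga
DNAJB1, chr19:14518398-14518647, minus strand: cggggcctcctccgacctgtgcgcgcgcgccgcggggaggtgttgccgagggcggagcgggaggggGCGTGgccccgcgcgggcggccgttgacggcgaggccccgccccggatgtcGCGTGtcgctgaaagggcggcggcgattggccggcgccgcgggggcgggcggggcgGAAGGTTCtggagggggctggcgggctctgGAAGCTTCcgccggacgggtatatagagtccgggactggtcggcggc

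The deposited value of a transcript is an FPKM from Cufflinks, fragments scaled by transcript length and by the mapped fragments of the library, and a gene's FPKM is the sum over its annotated transcripts and the assembled ones grouped with them. The files hold no read counts, so only relative depth can be had, by dividing each transcript's coverage by its FPKM, and the deepest library had 2.03 times that of the shallowest. Before the results, 3 libraries stand apart: control replicates 1 and 2 and heat shock replicate 3 listed 141632 to 194489 transcripts without a strand, against 17304 to 45600 in the other 3. Most abundant genes of a library also shared a common factor, the median ratio to the mean library over the 989 genes above 10 FPKM in all 6, which was lowest in control replicate 2 (0.434) and heat shock replicate 3 (0.487). It was 0.937 and 0.957 in the other controls, and heat shock replicates 1 and 2 had 2.13 and 2.32. Of 4 genes of the HEK293 lineage, NEFL had 2.45 to 13.0 FPKM and NEFM 1.44 to 8.92, while PAX2 and LHX1 had 0.320 to 4.26 and 0.234 to 1.69. Of 7 markers of other cells, COL1A1 had 3.23 to 4.16 FPKM and the other 6 were below 1 FPKM in every library.

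As deposited, the mRNAs of all 10 enzymes were high in heat shock replicates 1 and 2, intermediate in control replicates 1 and 3 and low in control replicate 2 and heat shock replicate 3. The values below are given in the order of replicates 1, 2 and 3 of each group. In the upper part of the pathway, GPI had 34.6, 13.7 and 26.8 FPKM in the controls, and the heat shock libraries had 72.8, 67.0 and 18.8 FPKM. PFKL, which commits glucose to the pathway, had 11.6, 7.40 and 11.5 FPKM in the controls, and the heat shock libraries had 23.0, 30.2 and 6.07 FPKM. Both groups overlapped for these genes, and heat shock replicate 3 of PFKL lay below all controls. ALDOA had 156, 68.2 and 144 FPKM in the controls, and the heat shock libraries had 369, 379 and 78.6 FPKM. TPI1 had 187, 85.6 and 182 FPKM in the controls, and the heat shock libraries had 413, 465 and 113 FPKM. In both, heat shock replicate 3 fell between control replicate 2 and the other controls.

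In the lower part of the pathway, GAPDH had 534, 255 and 490 FPKM in the controls, and the heat shock libraries had 1123, 2934 and 276 FPKM. It was the most abundant of the 10 in every library, and its value in heat shock replicate 2 was 2.61 times that in replicate 1. PGK1, the first enzyme to form ATP, had 38.9, 18.9 and 36.8 FPKM in the controls, and the heat shock libraries had 78.1, 133 and 18.8 FPKM. PGAM1 had 40.9, 21.9 and 42.6 FPKM in the controls, and the heat shock libraries had 96.6, 105 and 18.8 FPKM. For PGK1 and PGAM1, heat shock replicate 3 was below all 3 controls. ENO1 had 108, 52.4 and 114 FPKM in the controls, and the heat shock libraries had 239, 270 and 57.5 FPKM. Of the lactate dehydrogenase subunits, LDHA had 116, 58.6 and 107 FPKM in the controls, and the heat shock libraries had 240, 316 and 60.4 FPKM. LDHB had 281, 117 and 238 FPKM in the controls, and the heat shock libraries had 586, 668 and 131 FPKM. For ENO1, LDHA and LDHB, heat shock replicate 3 lay just above control replicate 2 and below the other controls.

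**Figure D1:**
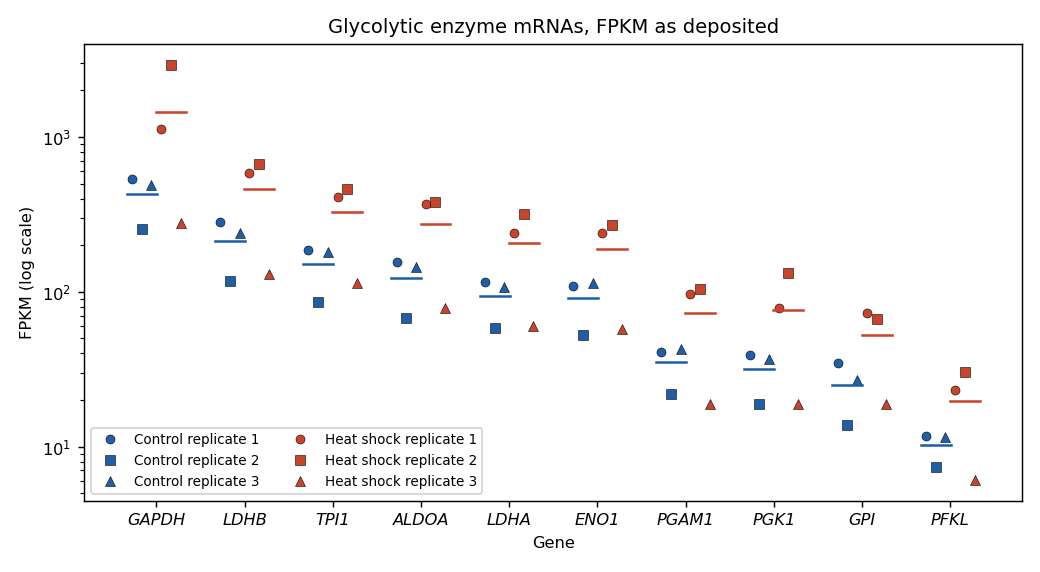
FPKM as deposited of the 10 enzymes (log axis) in each of the 6 libraries, with control in blue, heat shock in red, the replicate as the symbol and the mean of each group as a line. Heat shock replicates 1 and 2 lie above all controls for every gene, and heat shock replicate 3 lies near control replicate 2, with GAPDH at 276 against 255 FPKM.

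The groups overlapped for 10 of 10 enzymes, where 5.96% of the 13144 genes tested had groups that did not overlap. In limma on log2(FPKM + 1), 0 of the 10 passed the test (adjusted p under 0.05 after Benjamini-Hochberg adjustment over all genes, and more than 2-fold), and 0.0228% of all genes passed it. At an unadjusted p under 0.05, 0 of the 10 and 3.70% of all genes were called. The log2 differences, heat shock minus control, ran from 0.67 for PFKL to 1.26 for GAPDH, with standard errors of 0.77 and 0.95 and adjusted p-values of 0.709 for both (limma). Their median was 0.91, against 0.45 over all genes tested. With 0.1 added to the FPKM in place of 1, the medians were 0.92 for the enzymes and 0.56 over all genes. The gap was smaller among abundant genes, and its cause was not tested. With the filter raised from 1 to 10 FPKM, 2951 genes were left, all 10 enzymes among them. The median over the 2951 was 0.82, close to that of the enzymes. For TPI1 the 95% interval of the difference was -1.06 to 2.98 (limma, 3 libraries a group), which spans more than 2-fold in either direction.

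The call turned on no single library, but the size of the difference did. Without heat shock replicate 3, the median log2 difference of the 10 enzymes was 1.61 against 0.83 over all genes. Each of the 10 was then higher at an unadjusted p under 0.05, as were 5231 of all 13144 genes. The lowest adjusted p of the 10 was 0.0781 (limma). Without heat shock replicate 2 the median was 0.45, and without control replicate 2 it was 0.56. With a term for the 3 libraries rich in strandless transcripts it was 0.46, against 0.21 over all genes. For these fits the median over abundant genes alone was not computed. FPKM is scaled by the mapped fragments of each library. A change in an mRNA per cell and a change in the rest of the library therefore cannot be told apart.

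The transcripts behind these sums were not alike in every library. In 42 of the 60 pairs of enzyme and library the whole FPKM was assigned to annotated transcripts, and in the other 18 assembled transcripts, which Cufflinks built from the reads, took a share. In ALDOA, ENO1, LDHA and LDHB every library had annotated transcripts alone. GAPDH in heat shock replicate 2 was the extreme: its 9-exon mRNA was listed at 398 FPKM, and an assembled transcript of 676 bases and 5 exons at chr12:6643585-6647541 at 2536 FPKM (Cufflinks 95% interval 2491 to 2580), 86.4% of the gene's sum. FPKM divides by length, and this transcript is shorter than the 1383 bases of the annotated mRNA. In the same library PGK1 had its 11-exon mRNA at 26.8 FPKM and a transcript of 1736 bases and 6 exons, covering only the 3′ part, at 106 FPKM. TPI1 in heat shock replicate 3 was divided between its mRNA and a transcript of 4 exons listed at 63.3 FPKM, whose interval ran from 0 to 144. These were chosen after their values were seen.

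To bring such transcripts to one scale, an exon level was computed: over each base of the exons of the leading annotated transcript the FPKM of all transcripts on it were summed, and the mean over bases was taken. In GAPDH the FPKM over exons 1, 2, 3 and 9 of heat shock replicate 2 was 2934, over exons 4 to 7 it was 398, and over exon 8 it was 1000. In heat shock replicate 1 all 9 exons had 1123. In PGK1 of heat shock replicate 2, exons 1 to 6 had 26.8 and exons 7 to 11 had 133, while the other 5 libraries had the same value over all 11 exons. These steps are transcript values given by Cufflinks and not read coverage. The exon level of GAPDH in that library was 1630, so the sum was 1.80 times as high. For PGAM1 in control replicate 2 the sum was 1.41 times the exon level, with 21.9 against 15.5 FPKM. For PFKL it was 1.94 to 2.80 times as high in all libraries but heat shock replicate 3. No library but heat shock replicate 1 listed an annotated PFKL transcript above 0, and all 3 control libraries listed single-exon transcripts, of 1988 to 14387 bases, in the gene. In heat shock replicate 3 its assembled transcripts had 7534 to 14112 bases, where the annotated mRNA has 2913.

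**Figure D2:**
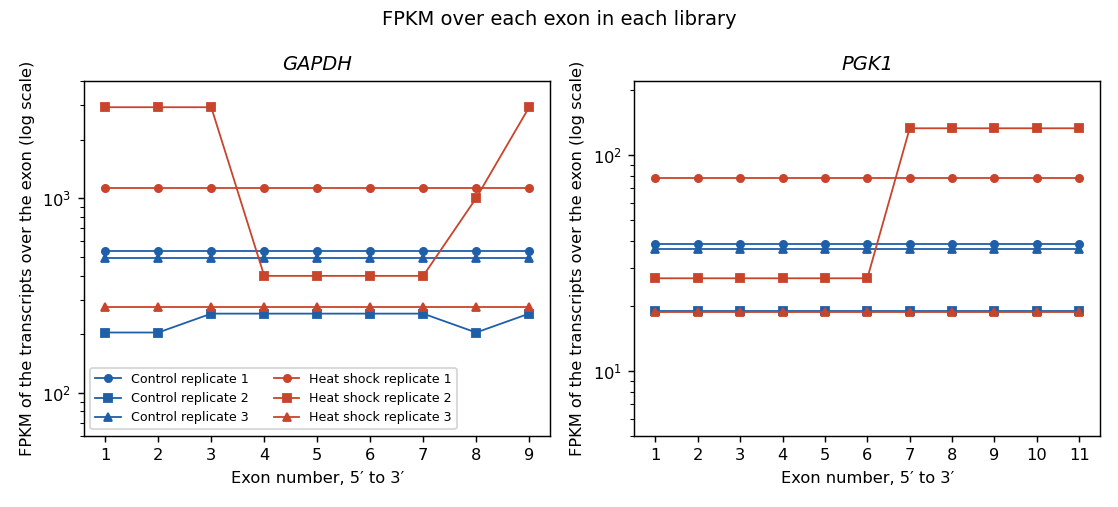
FPKM of the transcripts over each exon (log axis) against exon number for GAPDH and PGK1, with 1 line for each library, control in blue and heat shock in red. Heat shock replicate 2 (red squares) steps from 2934 to 398 FPKM within GAPDH and from 26.8 to 133 FPKM within PGK1, while the lines of most libraries are level.

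Each library's exon level was then divided by its common factor, computed anew over 861 genes above 10 in all libraries. The enzymes other than PFKL are among these genes. After this, the large differences between libraries were no longer seen for 9 of the 10 enzymes. TPI1 had 193, 200 and 191 in the controls, and the heat shock libraries had 189, 195 and 193. ALDOA had 161, 155 and 147 in the controls, and the heat shock libraries had 169, 159 and 163. ENO1 had 112, 123 and 120 in the controls, and the heat shock libraries had 109, 113 and 119. For each of them the groups overlapped, and the highest library was at most 1.15 times the lowest. GAPDH had 552, 543 and 514 in the controls, and the heat shock libraries had 514, 683 and 572, with replicate 2 still the highest. LDHB had 290, 275 and 250 in the controls, and the heat shock libraries had 269, 280 and 271. LDHA had 116, 137 and 111 in the controls, and the heat shock libraries had 109, 130 and 124. PGAM1 had 38.9 ± 2.85 (SD, n = 3) in the controls and 42.3 ± 3.02 after heat shock. PGK1 had 41.0 ± 2.94 and 38.5 ± 2.51, and GPI 30.6 ± 2.21 and 29.5 ± 2.79, in the same order. PFKL was the exception, with 6.11, 6.68 and 4.30 in the controls, and the heat shock libraries had 4.99, 6.51 and 12, replicate 3 being the highest.

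**Figure D3:**
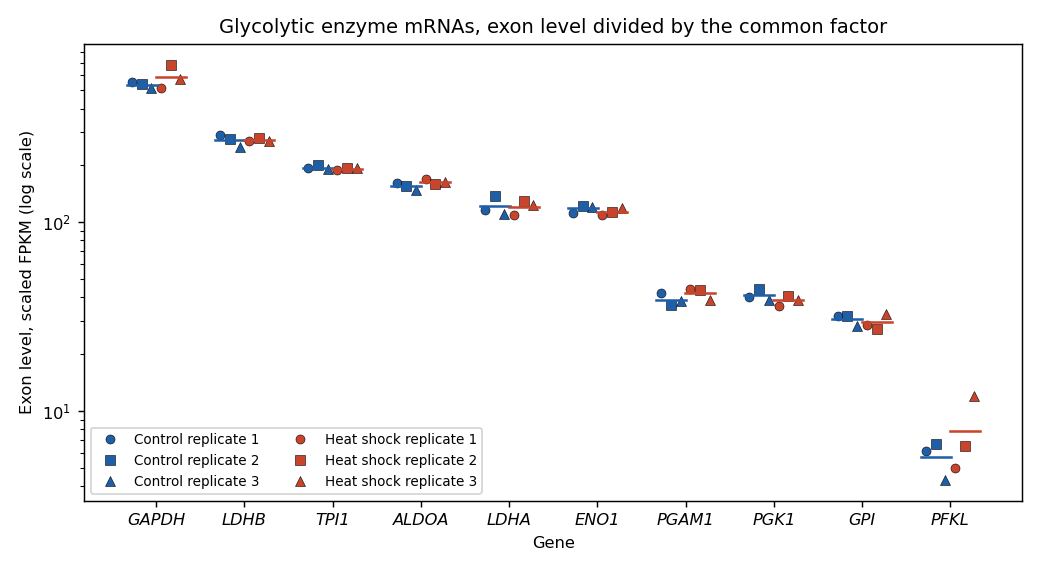
Exon level divided by the common factor (scaled FPKM, log axis) of the 10 enzymes in each library, with control in blue, heat shock in red and the mean of each group as a line. The 6 libraries of TPI1 lie between 189 and 200, and only PFKL spreads over more than 2-fold, from 4.30 to 12.

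On this scale 0 of the 10 enzymes had groups that did not overlap (7.08% of 11628 genes did), and 0 passed limma's test, as did 0% of all genes. At an unadjusted p under 0.05, 0 of the 10 and 2.65% of all genes were called. The log2 differences had a median of 0.00096, against -0.12 over all genes tested. Apart from PFKL the largest was that of GAPDH, 0.13 ± 0.11 (SE) with a 95% interval of -0.14 to 0.40 (adjusted p = 0.880, limma). TPI1 differed by -0.019 (interval -0.13 to 0.090), LDHB by 0.0085 (interval -0.16 to 0.17) and ALDOA by 0.080 (interval -0.054 to 0.21). PGK1 differed by -0.091, with an interval of -0.29 to 0.10. A 2-fold change, 1 on this scale, lay outside the intervals of all enzymes but PFKL, whose difference of 0.34 had an interval of -0.44 to 1.11 (limma). That of PFKL ran from 0.020 without heat shock replicate 3 to 0.58 without heat shock replicate 1. With a term for the strandless-rich libraries it was 0.58, the only enzyme then at an unadjusted p under 0.05 (adjusted p = 0.997, limma). Of all 11628 genes, 132 were higher and 247 lower at that unadjusted p in this fit. The scaling decides this: dividing by a common factor sets the middle of the abundant genes equal in all libraries, so a change shared by most of them is not seen. With the common factor on the summed FPKM, 0 of the 10 had groups that did not overlap (7.32% of all genes did) and 0 had an unadjusted p under 0.05 (3.22%). The enzymes then had a median difference of 0.050, and ENO1, PGAM1 and PFKL were negative, at -0.035, -0.10 and -0.16.

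The order of the levels on this per-length scale was GAPDH, LDHB, TPI1, ALDOA, LDHA, ENO1, PGAM1, PGK1, GPI and PFKL. GAPDH, with a mean of 563 ± 62.9 (SD, 6 libraries), was 2.07 times LDHB at 272 ± 13.4. LDHB was 1.41 times TPI1, at 194 ± 3.86, and TPI1 1.22 times ALDOA, at 159 ± 7.26, each pair in the same order in 6 of 6 libraries. LDHA, at 121 ± 11.2, and ENO1, at 116 ± 5.19, overlapped, and their order held in 4 of 6 libraries. PGAM1, at 40.6 ± 3.23, and PGK1, at 39.8 ± 2.82, also overlapped, in the same order in 3 of 6. GPI had 30.1 ± 2.34 and PFKL 6.76 ± 2.72, which was 4.44 times lower.

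A ratio of genes within a library does not depend on the scale of that library. The ratio of LDHA to LDHB mRNA was 0.412, 0.499 and 0.451 in the controls, and the heat shock libraries had 0.409, 0.474 and 0.461. The groups overlapped, and the log2 ratio differed by -0.018 ± 0.10 (SE), with p = 0.9 in an exact permutation test (two-sided, 3 against 3, smallest possible p 0.1). Each enzyme was also set against the geometric mean of all 10 in its library. By summed FPKM, LDHA was the steadiest, from 0.31 to 0.44 on the log2 scale, a difference of -0.033 with exact permutation p = 0.5. GAPDH stood at 2.54 to 2.58 in 5 libraries and at 3.57 in heat shock replicate 2. All 10 groups overlapped, with exact permutation p-values from 0.2 to 1. By exon level, PGK1 was lower relative to the mean of the 10 in all 3 heat shock libraries. It stood at -1.17, -1.11 and -1.24 against -1.09, -0.98 and -1.02 in the controls, a difference of -0.14 ± 0.050 (SE). GPI was also lower in all 3, at -1.50, -1.69 and -1.49 against -1.43, -1.45 and -1.48, a difference of -0.11 ± 0.068. These were 2 of the 10, and on this scale 9.59% of all genes had groups that did not overlap, 8.68% being lower. Both had exact permutation p = 0.1, the smallest the design allows. The mean of the 10 includes PFKL, which by exon level stood at -2.93 in heat shock replicate 3 and at -4.19 to -3.71 in the other libraries. A mean without PFKL was not computed. With the common factor in place of the mean, PGK1, GPI and the other enzymes all had overlapping groups (7.08% of all genes had not). By summed FPKM 0 of the 10 separated (7.33% of all genes did), and the differences of PGK1 and GPI were 0.033 and 0.034. The ratio of GAPDH to PGK1, a pair chosen after its values were seen, was 13.7, 13.5 and 13.3 in the controls, and the heat shock libraries had 14.4, 22.1 and 14.7 by summed FPKM. By exon level it was 13.7, 12.3 and 13.3 in the controls, and the heat shock libraries had 14.4, 16.8 and 14.7. The groups did not overlap by either measure, with log2 differences of 0.31 ± 0.20 and 0.22 ± 0.085 (SE) and exact permutation p = 0.1 for both. By exon level scaled to PGK1, 3.18% of all genes were higher without overlap. By summed FPKM this share was not computed.

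As candidate reference genes, the enzymes were compared with 13 genes in common use. On the exon level divided by the common factor, the SD of the log2 level over the 6 libraries was 0.029 for TPI1, the lowest of the 23 genes. Only 0.813% of the 861 abundant genes had a lower one. ENO1 had 0.065, ALDOA 0.066 and LDHB 0.072, near PPIA (0.040), RPL10 (0.046), YWHAZ (0.047) and RPL13A (0.067). PGK1, GPI and PGAM1 had 0.10, 0.11 and 0.12, at the median of the abundant genes, which was 0.12. GAPDH had 0.15 and ACTB 0.14, and 69.3% and 63.4% of the abundant genes were steadier. PFKL, with 0.51, was the least steady of the 23. It is not among the 861 abundant genes, as its exon level before scaling was 2.85 to 15.5. The medians were 0.11 for the enzymes and 0.14 for the common reference genes. By summed FPKM divided by the common factor, ENO1 had the lowest SD of the 23 genes, 0.038, and GAPDH the highest among the enzymes, 0.50. TPI1 then had 0.11, above ENO1, PPIA, RPL10, ALDOA and LDHB, and PFKL had 0.22. Without heat shock replicate 2 that of GAPDH was 0.084. As deposited, no enzyme was steady: the SDs ran from 0.90 to 1.34, with a median of 1.04 over the abundant genes, and PFKL had the lowest, as it did among the enzymes with median-of-ratios size factors (0.26).

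**Figure D4:**
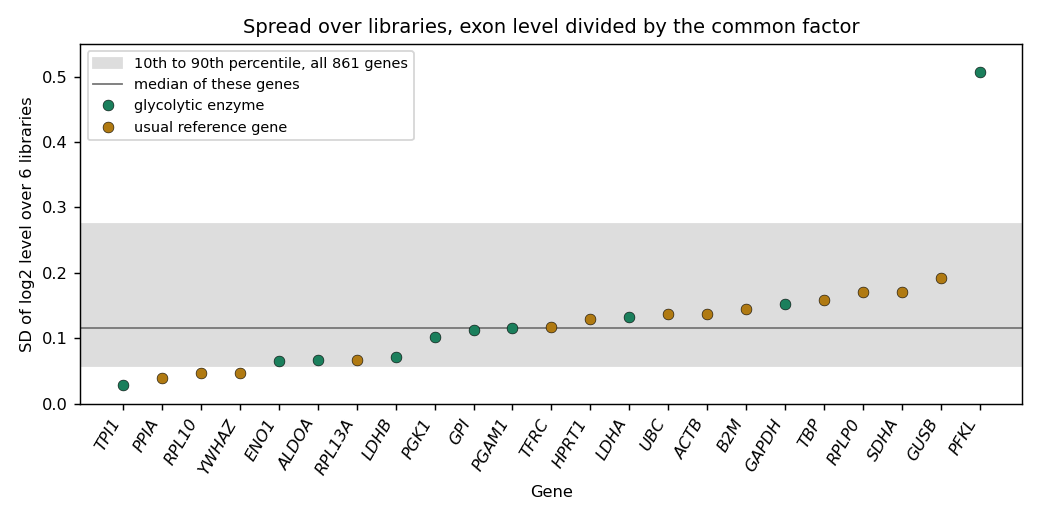
SD of the log2 level (exon level divided by the common factor) over the 6 libraries for the 10 enzymes (green) and 13 genes in common use as references (gold), with the median and the 10th to 90th percentile of 861 abundant genes in grey. TPI1 is the lowest at 0.029, GAPDH lies above the median at 0.15, and PFKL is the highest at 0.51.

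Each heat shock gene was also set against each enzyme in turn. By exon level, DNAJB1, an HSP40 co-chaperone of HSP70, was higher after heat shock by 1.92 (against PFKL) to 2.39 (against PGK1) on the log2 scale, and its groups did not overlap against any of the 10 enzymes. HSPA1B, an inducible HSP70, was higher by 1.43 to 1.91, again without overlap against any of the 10. HSPA1A, its near-identical copy, was higher by 0.83 to 1.30, without overlap against 9 of the 10 and with overlap against PFKL. The reads of these HSP70 copies may be divided between them in ways the FPKM do not show. Against ENO1, 7 of the 12 heat shock genes were higher without overlap (2.5% of all genes were), against PGK1 6 (3.18%) and against TPI1 6 (2.09%). Against GPI the count was 5 (2.42%), against ALDOA 5 (0.654%), against LDHB 4 (1.38%) and against LDHA 4 (0.937%). It was lowest against PGAM1 with 3 (0.413%), GAPDH with 3 (0.258%) and PFKL with 2 (0.0774%). HSPA8, the constitutive HSP70, differed by 0.32 against TPI1 without overlap, and by 0.18 with overlap against GAPDH. Not every heat shock gene was higher. HSPA6, at 0.277 to 0.710 FPKM as deposited, was lower against all 10 enzymes, by -0.94 to -0.46. HSPE1 differed by -0.41 to 0.063, above 0 against 3 of the 10, and HSPD1 by -0.36 to 0.11, above 0 against 6. For HSPA6, HSPE1 and HSPD1 the groups overlapped against every enzyme. By the common factor alone 6 of the 12 were higher without overlap, and 1.65% of all genes were. None of the 11 tested passed limma's adjusted test on this scale, where DNAJB1 had a log2 difference of 2.18 ± 0.31 (SE, adjusted p = 0.880), while 5 had an unadjusted p under 0.05.

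**Figure D5:**
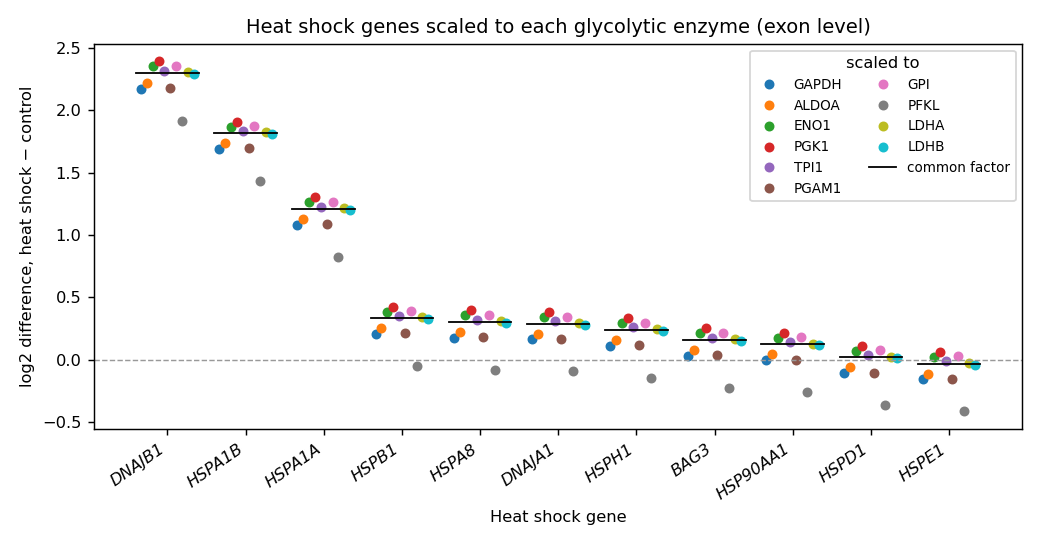
log2 difference, heat shock minus control, of 11 heat shock genes by exon level, scaled to each of the 10 enzymes (coloured points) or to the common factor (black line), as means of 3 libraries a group. HSPA6, which was lower against all 10 enzymes, is not shown. DNAJB1 lies between 1.92 and 2.39 whichever enzyme is used, and the points scaled to PFKL (grey) are the lowest for every gene.

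Of 40 further genes of the pathway (other hexokinases, isozymes, regulators, transporters and the mitochondrial pyruvate step), 30 were tested as deposited. None was called after adjustment in either direction by limma (0.0152% of all genes were called higher and 0.00761% lower). The median log2 difference was 0.55. At an unadjusted p under 0.05, 3 of the 30 were higher (2.02% of all genes were). They were ENO2, PFKM and TIGAR, each with an adjusted p of 0.709 (limma), and averaged 7.58, 3.66 and 2.74 FPKM. As deposited 3 of the 30 were higher without overlap (3.72% of all genes were), HK2, PFKM and PFKFB2, and 0 were lower. HK2 and PFKFB2 averaged 5.10 and 1.31 FPKM. With the common factor on the summed FPKM, TIGAR was higher without overlap (1.92% of all genes were) and MPC1 lower (5.39%). PKM, the pyruvate kinase of most tissues, was the most abundant of them, with 110, 93.2 and 112 FPKM in the controls, and the heat shock libraries had 274, 311 and 110 FPKM. Its exon level divided by the common factor was 104 ± 5.82 in the controls and 110 ± 17 after heat shock (SD, n = 3). HK1, the housekeeping hexokinase, had 6.97 ± 0.998 and 7.81 ± 0.895 on that scale, and SLC16A1, a lactate transporter, 15.4 ± 0.828 and 14.3 ± 0.827. PDHB, a subunit of pyruvate dehydrogenase, had 19.9 ± 1.81 and 19.9 ± 0.267, and MPC2, of the pyruvate carrier, 8.46 ± 1.33 and 9.35 ± 1.2. PFKP, the platelet-type phosphofructokinase, had 8.96, 9.53 and 11.3 in the controls, and the heat shock libraries had 8.59, 7.70 and 8.47, and its groups did not overlap. MPC1, the partner of MPC2 and named after its values were seen, had 5.89, 6.45 and 6.74 in the controls, and the heat shock libraries had 5.29, 5.60 and 5.01, again without overlap. They were the 2 of 26 such genes tested at the exon level whose groups did not overlap, both lower (5.43% of all genes were lower without overlap), and both had an adjusted p of 0.880 (limma).

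The deposited comparison table gives 1 pooled FPKM for each group and locus and no spread, so the following are the authors' pooled values without a test. GAPDH had 558 in control and 2667 in heat shock, TPI1 243 and 1162, LDHB 277 and 1237, and PFKL 11.8 and 39.2. The ratio of heat shock to control was 3.33 for PFKL and between 4.41 (PGK1) and 5.11 (ALDOA) for the other 9, with a median of 4.57. Over the 4146 named loci above 5 FPKM in control the median ratio was 4.33, with 5% of loci below 1.94 and 5% above 5.23. All 10 enzymes lay between these limits. Of the 10, 9 were above the median, with ALDOA above 92.2% of the loci, while PFKL was above 12.6% of them. The libraries give less: the ratio of their group means was 1.94 to 3.39, with a median of 2.18. For 9 of the 10 enzymes the pooled heat shock value was above that of every single heat shock library, as in ALDOA with 822 against at most 379. In the pooled columns the GAPDH to TPI1 ratio was 2.30 in both groups, whereas the single libraries by summed FPKM had 2.44 to 6.31.

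Copies of these genes elsewhere in the genome can share their reads. GENCODE names 99 pseudogenes after the 10 enzymes, 65 of them after GAPDH, 13 after PGAM1 and none after GPI or PFKL. Listed transcripts covered at least 50% of 12 of the 99 in some library. Of the 65 GAPDH copies, 6 were listed in any library, together at 7.40 FPKM or less, which is at most 2.90% of the GAPDH value of that library (control replicate 2), and none in heat shock replicates 1 and 2. ENO1P1 and ENO1P4 were listed in all 6 libraries, and the copies of ENO1 together reached 6.89% of the ENO1 value in heat shock replicate 3 and 2.18% to 2.93% in the other 5. No copy of PGK1, PGAM1, LDHA or LDHB was listed.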

How the data were processed

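Total RNA of 6 HEK293 samples, 3 control and 3 heat shock as the labels name them, was sequenced after depletion of ribosomal RNA. The submitters' processing notes name FastQC 0.10.1, Trimmomatic, tophat2, hg19 and Cufflinks 2.0.2. The authors deposited FPKM per transcript for each library and a comparison table with a pooled FPKM per group. Its fold changes, p-values and q-values were not used.

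A gene's FPKM was the sum over its transcripts. limma 3.58.1 (R 4.3.3) was run on log2(FPKM + 1) for every gene whose mean reached 1 FPKM, with a trend in the prior variance and Benjamini-Hochberg adjustment over all genes. This scale understates the change of low genes. Single ratios were tested by exact two-sided permutation. The exon level was added after values had been seen. Genes of the pathway named beyond the 10 enzymes averaged 10 FPKM or more. The exceptions, HK2, PFKM, PFKFB2, ENO2, TIGAR and MPC1, were named after their values were seen. The members and gene lists were chosen with earlier results of these data known. One gene of the reference list is not reported here. The limma procedure was tested on simulated data. Alternatives covered scaling, pseudocount, filters, transcripts used, the replicate block and leaving out each library.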

Additional observations from a re-analysis of the deposited data

How the results depend on the processing

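None of the 10 enzymes was called under any alternative, and the lowest adjusted p was 0.0781 (limma, without heat shock replicate 3). Over all genes, 3 were called as deposited, 1 with median-of-ratios size factors, 0 with the common factor, 0 rescaled to TPM, 0 with no minimum FPKM, 1 by eBayes without a trend, 1 with annotated transcripts alone, 5 at the exon level, 0 at the exon level with the common factor, 481 by an unadjusted p with the fold limit, and 0 to 7 when 1 library was left out. Of the genes at an unadjusted p under 0.05, 54.7% were higher as deposited, 21.7% with the common factor and 23.4% at the exon level with it.

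With the replicate number as a block, 17 genes were called, and 0 with the block and the common factor, none of them an enzyme. Same-numbered libraries had correlations of 0.028, -0.34 and -0.39 in their deviations, so the numbers were not taken as pairs.

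Of 279 alternatives for the log2 differences of the enzymes, 259 kept their direction and 20 reversed. The count pools alternatives to the summed FPKM as deposited and to the exon level with the common factor. Many could not reverse: the gene filter, the prior trend, the replicate block and the unadjusted p leave a difference as it was. The count is therefore no measure of stability. With the common factor, and with the block beside it, ENO1 was at -0.035, PGAM1 at -0.10 and PFKL at -0.16. Rescaled to TPM, PFKL was at -0.047. With annotated transcripts alone GPI was at -1.55, its annotated transcripts being listed at 0 in heat shock replicate 2. At the exon level with the common factor ENO1 was at -0.053, PGK1 at -0.091, TPI1 at -0.019, GPI at -0.055 and LDHA at -0.0066. A strandless term there gave 0.010 for GPI and 0.035 for LDHA. Leaving out 1 library there gave -0.034 to 0.0012 for TPI1, -0.069 to 0.084 for LDHA and -0.050 to 0.058 for LDHB. The median SD of the enzymes was 0.123 with the common factor, 1.02 as deposited, 0.337 with median-of-ratios size factors and 0.251 with annotated transcripts alone. The median difference of DNAJB1 relative to the enzymes was 2.58 by summed FPKM and 2.30 by exon level. The causes of these shifts were not tested. The files hold no counts, so no counting error could be given.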
